A study of Mus musculus with 12 samples.

Results

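The genes described here are 41 genes of chromosomal DNA replication, listed by name, and their RNA levels were read on 12 Affymetrix expression arrays of cultured mouse adipocytes. A gene was represented by the probe set that maps to its symbol alone and is brightest on average over the 12 arrays. By that rule 39 of the 41 were measured, of 22184 genes in all, while Rfc4 and Ccne2 lie only on probe sets shared with other symbols and have no value here. The cells were inguinal adipose precursor cells of genotype R26Cre/Prdm16floxEx9 in every group, so each array carries a Cre at the Rosa26 locus and floxed exon 9 of Prdm16. The 4OHT_Rosi cells received 1 uM 4-hydroxytamoxifen (4OHT), the ligand that switches on tamoxifen-dependent Cre, for 3 days while growing, and then a differentiation medium with 1 uM rosiglitazone, a drug that activates PPARgamma, the nuclear receptor that drives fat cell differentiation. The EtOH_Rosi cells received ethanol, the vehicle, and then the medium with rosiglitazone, the 4OHT cells received 4-hydroxytamoxifen, and the EtOH cells received ethanol. Rosiglitazone is on the labels of the first 2 groups and not on those of the last 2, which are taken here as cells without it, although 1 protocol text shared by all samples lists the drug, so that its absence rests on the sample labels. The medium held serum, isobutylmethylxanthine, indomethacin, dexamethasone, insulin and T3. Each group has 3 arrays, numbered 1 to 3. No group had Cre alone or the floxed allele alone, so an effect of 4-hydroxytamoxifen or Cre and an effect of losing Prdm16 cannot be told apart. No label says that replicates were separate cultures, so the p-values reflect array-to-array spread that may be technical.

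Before S phase the origin recognition complex, Cdc6 and Cdt1 load the ring-shaped MCM helicase onto chromosomal origins, which licenses them. At S phase entry the kinase Cdc7, Cdc45, Mcm10 and the GINS complex switch the helicase on, primase with DNA polymerase alpha starts each strand, and the sliding clamp PCNA, loaded by replication factor C, tethers the enzymes that extend it. Transcription of many of these genes is driven by E2F factors and shut by the retinoblastoma family in resting cells, so their RNA marks cells that are cycling or ready to cycle. White and beige fat precursors divide in growth medium, and mature adipocytes are mostly withdrawn from the cycle. Prdm16 itself is a zinc finger regulator best known for promoting thermogenic genes in brown and beige fat.

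Prdm16, the targeted gene, read 6.63, 6.7 and 6.63 in 4OHT_Rosi against 7.2, 7.46 and 7.44 in EtOH_Rosi, with no overlap and a log2 difference of -0.71 (SE 0.099, adjusted p = 0.00065). Without rosiglitazone it read 6.33, 6.45 and 6.59 in 4OHT against 6.55, 6.49 and 6.84 in EtOH, with overlapping arrays and a difference of -0.17 (SE 0.099, adjusted p = 0.45). Whether its probe set lies in the deleted exon is not known here, so these values do not measure the excision. Array 4OHT_Rosi 3 stood apart: on the third principal component of all genes it scored 16.03, against -8.95 to 7.98 for the other 11 arrays, and it was the highest array of its group in 34 of the 39 replication genes. For the counts of members called, and where leaving it out changed a member's call, the value without it is also given. The 8 adipocyte markers averaged 12.38 to 12.47 log2 in 4OHT_Rosi arrays, 12.38 to 12.41 in EtOH_Rosi arrays, 11.99 to 12.05 in 4OHT arrays and 11.95 to 12.01 in EtOH arrays, while the median gene of the table had 6.6.

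The start regions of these genes hold E2F letters more often than the promoters of all genes. A window of 250 bases before to 50 bases after the RefSeq start was available for 33 of the 41 genes. The E2F letters searched were TTTCCCGC, TTTGGCGC, TTTCGCGC and TTTGCCGC on both strands, and 14 of the 33 genes (42.4%) held at least 1 of them, against 2.6% of 27025 genes. The CCAAT box (CCAAT, both strands) was in 19 of 33 (57.6%), against 41.1% of all genes. The CHR element (TTTGAA or TTCGAA, both strands), a letter pattern known from promoters of mitotic genes, was in 6 of 33 (18.2%), against 21.7% of all genes and 20 of 25 mitosis genes (80.0%), of which 1 (4.0%) held the E2F letters. A match is a run of letters and not a site shown to be bound, and a window without one says nothing about the factor. The windows of 4 genes, those with the smallest p for 4OHT against EtOH within their role and the first 4 roles in order of that p, are printed 5′ to 3′ on the gene's strand from RefSeq on GRCm38.p6. Capitals mark the E2F and CCAAT letters.
Chaf1b promoter, chr16:93883651-93883950 (plus strand): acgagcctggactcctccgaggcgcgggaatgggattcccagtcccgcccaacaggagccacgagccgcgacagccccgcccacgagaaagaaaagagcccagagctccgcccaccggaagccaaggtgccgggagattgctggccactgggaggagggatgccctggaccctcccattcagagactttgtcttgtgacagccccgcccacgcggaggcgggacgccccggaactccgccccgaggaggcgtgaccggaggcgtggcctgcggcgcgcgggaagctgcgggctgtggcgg
Pcna promoter, chr2:132253131-132253430 (minus strand): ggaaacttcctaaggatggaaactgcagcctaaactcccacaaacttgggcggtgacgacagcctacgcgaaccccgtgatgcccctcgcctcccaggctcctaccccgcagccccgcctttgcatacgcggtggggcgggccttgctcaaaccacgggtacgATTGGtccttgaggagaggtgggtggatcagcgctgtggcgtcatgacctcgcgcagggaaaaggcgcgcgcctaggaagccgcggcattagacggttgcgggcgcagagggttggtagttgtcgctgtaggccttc
Mcm3 promoter, chr1:20820263-20820562 (minus strand): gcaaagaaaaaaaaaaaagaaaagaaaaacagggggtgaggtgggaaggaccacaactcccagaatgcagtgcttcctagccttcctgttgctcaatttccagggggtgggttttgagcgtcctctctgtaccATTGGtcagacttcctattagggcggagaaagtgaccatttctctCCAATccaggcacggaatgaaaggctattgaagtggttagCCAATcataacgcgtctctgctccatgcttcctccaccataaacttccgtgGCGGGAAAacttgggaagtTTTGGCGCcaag
Clspn promoter, chr4:126556730-126557029 (plus strand): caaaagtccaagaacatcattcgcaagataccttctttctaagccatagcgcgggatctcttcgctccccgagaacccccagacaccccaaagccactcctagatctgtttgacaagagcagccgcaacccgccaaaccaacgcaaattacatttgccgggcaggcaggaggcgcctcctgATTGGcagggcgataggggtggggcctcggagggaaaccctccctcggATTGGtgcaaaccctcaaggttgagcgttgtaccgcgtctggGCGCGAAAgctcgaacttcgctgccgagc
Mcm3 holds 2 E2F runs just past its start and 3 CCAAT runs before it. Clspn holds 1 E2F run and 2 CCAAT runs, Pcna holds a CCAAT run alone, and Chaf1b holds no run of either kind as spelled here. E2F and CCAAT runs did not overlap in these windows. Of the genes that fell with rosiglitazone after ethanol and had a window, 12 of 25 held E2F letters, against 2 of 7 of the other measured genes.

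**Figure D1:**
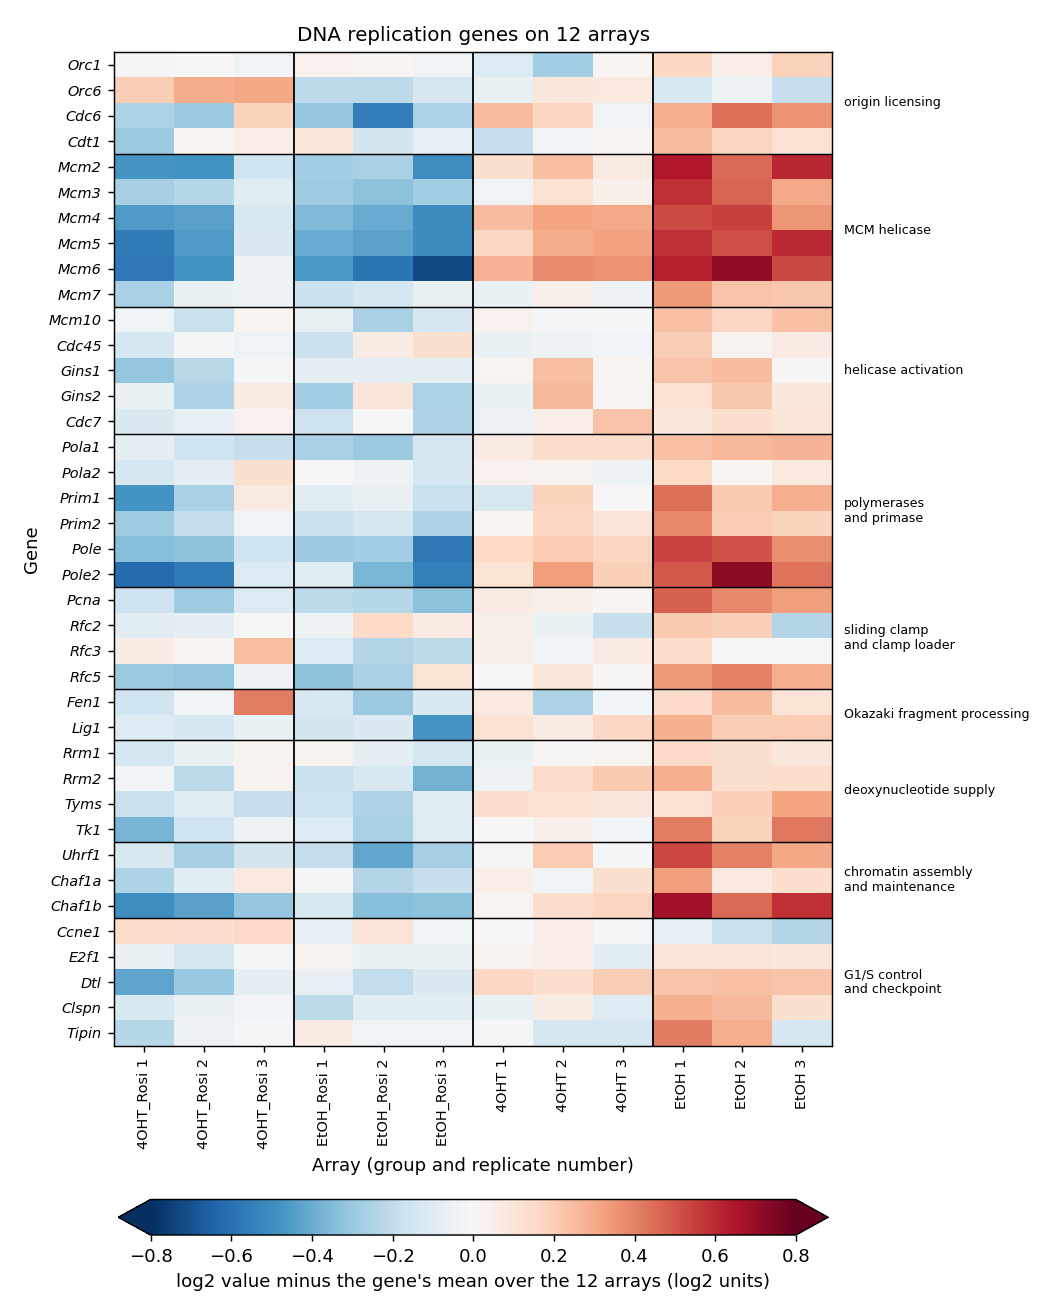
Log2 values of the 39 replication genes (rows, by role) on the 12 arrays (columns, by group), each minus the gene's mean over the 12 arrays. Red is above and blue below that mean. The EtOH arrays are the reddest for most genes, the arrays with rosiglitazone are the bluest, and 4OHT_Rosi 3 is paler than the other 4OHT_Rosi arrays.

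Cells differentiated without 4-hydroxytamoxifen and without rosiglitazone held the most replication gene RNA. The mean log2 level over the 39 genes lay between 7.331 and 7.541 on the 4OHT_Rosi arrays (median 7.373), 7.34 and 7.396 on the EtOH_Rosi arrays (7.362), 7.585 and 7.642 on the 4OHT arrays (7.613), and 7.754 and 7.859 on the EtOH arrays (7.805). The 2 rosiglitazone groups overlapped, and no other neighbours in that order did. The EtOH mean was the highest of the 4 for 35 of 39 genes, and the lowest was EtOH_Rosi for 24, 4OHT_Rosi for 12, 4OHT for 2 and EtOH for 1. The median SD of a member was 0.117 in 4OHT_Rosi, 0.09 in EtOH_Rosi, 0.075 in 4OHT and 0.086 in EtOH. Over all genes it was lower in each group, at 0.091, 0.086, 0.07 and 0.078 in that order. The largest SD of a member was 0.299, in 4OHT_Rosi. In such bulk samples fewer cycling cells and less RNA per cell cannot be told apart.

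Rosiglitazone after ethanol lowered most of the machinery. In EtOH_Rosi against EtOH, 28 of 39 genes fell and 0 rose at an adjusted p under 0.05 in limma, a linear model with moderated variance fitted to all 22184 genes. That is 71.8% of the members, while 16.3% of all genes tested were called lower and 14.4% higher. The median log2 difference of the members was -0.38, with a range of -1.21 to 0.16, and the median over all genes was 0.013. All EtOH_Rosi arrays lay below all EtOH arrays for 33 of 39 members, against 20.9% of all genes, and above them for 0, against 19.9%. With arrays left out in turn, 22 to 30 genes fell (29 without 4OHT_Rosi 3), and Ccne1 rose without EtOH 1. Of the 28, 11 changed by at least 1.5-fold.

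After 4-hydroxytamoxifen fewer of them passed. In 4OHT_Rosi against 4OHT, 14 of 39 genes fell (35.9%) and 1 rose, Orc6, while 12.1% of all genes were called lower and 11.6% higher. The median of the members was -0.20 and of all genes 0. All 4OHT_Rosi arrays lay below all 4OHT arrays for 18 of 39 members, against 18% of all genes, and above them for 2, against 18.1%. Without 4OHT_Rosi 3 there were 18 falls and 1 rise, with a median of -0.23. Without 4OHT_Rosi 2, 10 genes fell and Orc6 no longer passed. Of the 14 falls, 13 were also among the 28 after ethanol, which is 92.9% of the shorter list and 46.4% of the longer, and the remaining 1 was Gins1, which had like differences after both (-0.27 and -0.24) and passed after ethanol too without 4OHT_Rosi 3. Across the 39 genes, which share these arrays, the differences of both comparisons, which share no array, ran together (Pearson r 0.88, Spearman rho 0.85). The fall was larger after ethanol for 35 of 39. A test of that difference gene by gene was passed by 2 of the 39, Mcm3 and Pcna.

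**Figure D2:**
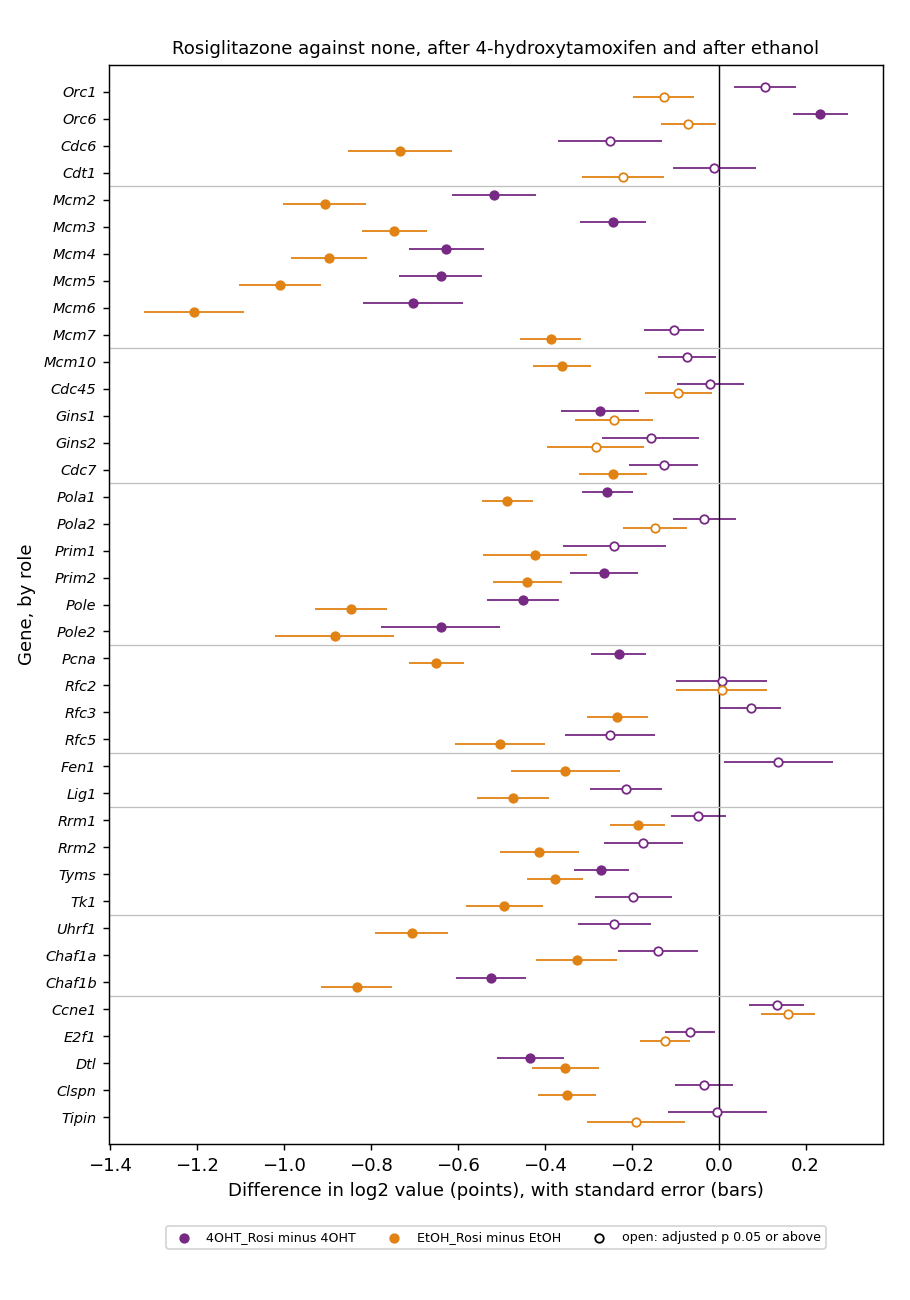
Log2 difference for rosiglitazone against none (horizontal axis; points with standard errors, n = 3 arrays a group) for each replication gene, after 4-hydroxytamoxifen (purple) and after ethanol (orange). Filled points have an adjusted p under 0.05. Mcm2 to Mcm6, Pole, Pole2, Chaf1b, Cdc6 and Uhrf1 lie farthest left after ethanol, down to -1.21 for Mcm6 after ethanol, and Orc6 after 4-hydroxytamoxifen is the one filled point right of 0.

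Without rosiglitazone, 4-hydroxytamoxifen lowered 6 of the genes. In 4OHT against EtOH, 6 of 39 genes fell (15.4%): Mcm2, Mcm3, Mcm7, Pcna, Uhrf1 and Chaf1b. None rose, with 1.79% of all genes called lower and 2.13% higher. The median of the members was -0.20, with a range of -0.46 to 0.17, against 0 for all genes, and 37 of the 39 differences were negative. All 4OHT arrays lay below all EtOH arrays for 27 of 39, against 11.7% of all genes, and above them for 1, Ccne1, against 11.2%. The count is sensitive to single arrays: 3 genes passed without EtOH 1, 3 without 4OHT 1, and 9 without 4OHT_Rosi 3, which enters this comparison through the shared variance alone. The 3 added there were Mcm5 (adjusted p = 0.014), Tk1 (0.035) and Clspn (0.0497).

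With rosiglitazone present, 4-hydroxytamoxifen did not lower them as a group. In 4OHT_Rosi against EtOH_Rosi, 2 of 39 genes rose (5.13%), Orc6 and Rfc3, and 0 fell, while 4.65% of all genes were called higher and 3.38% lower. A share of 5.13% is near that background. The median of the members was 0.057, with 25 differences positive and 14 negative, and the median of all genes was -0.0067. All 4OHT_Rosi arrays lay above all EtOH_Rosi arrays for 4 members, against 11.5% of all genes, and below them for 0, against 10.3%. Without 4OHT_Rosi 3 the median was -0.023, with 17 differences positive and 22 negative, Orc6 still rose, at 0.43 (adjusted p = 0.0036), Rfc3 missed, at 0.22 (adjusted p = 0.085), and Dtl fell, at -0.24 (adjusted p = 0.044). Rfc3 also missed without EtOH_Rosi 2 or EtOH_Rosi 3, which left Orc6 alone.

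**Figure D3:**
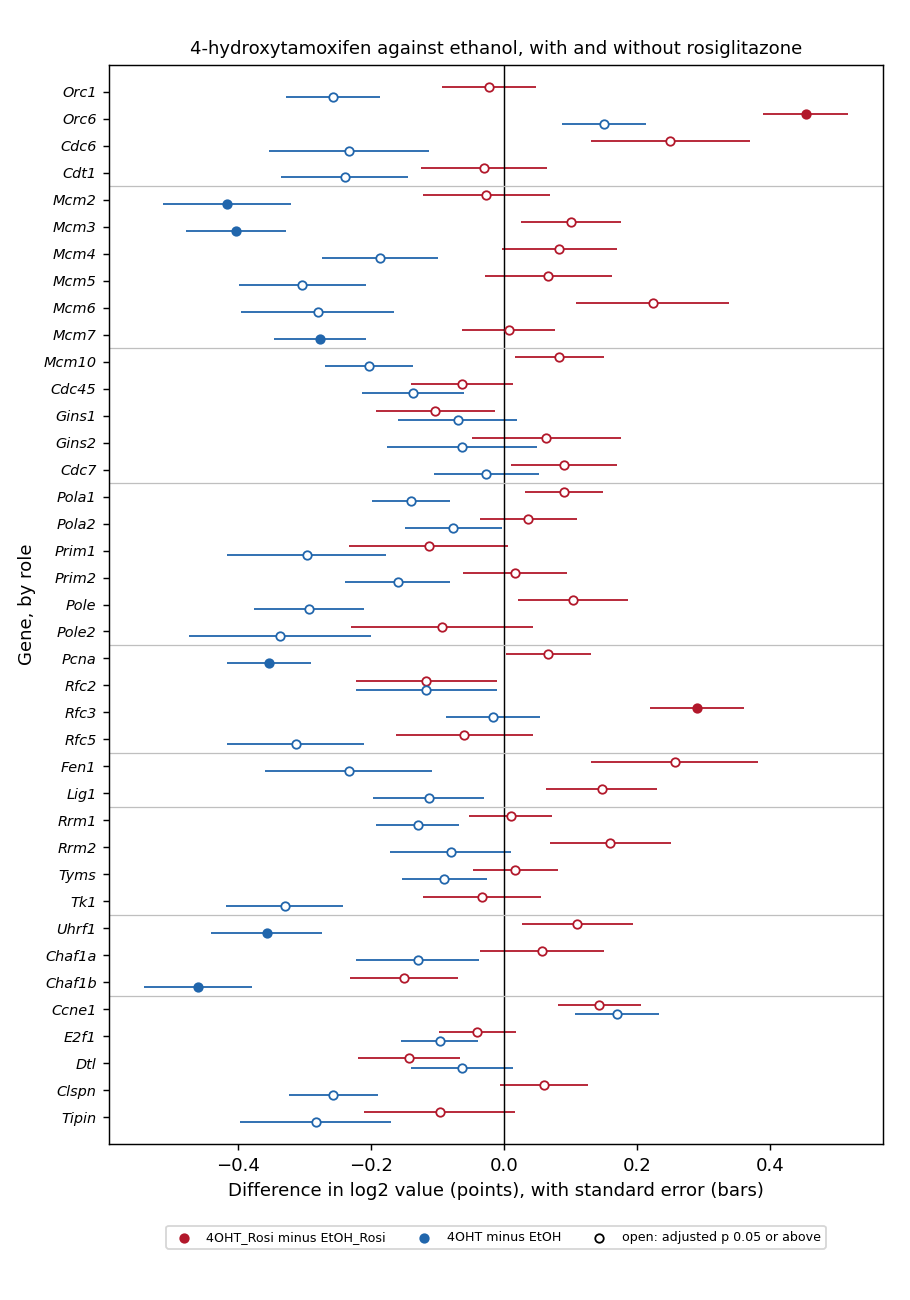
Log2 difference for 4-hydroxytamoxifen against ethanol (horizontal axis; points with standard errors, n = 3 arrays a group) for each replication gene, with rosiglitazone (red) and without (blue). Filled points have an adjusted p under 0.05. Blue points lie left of 0 for 37 of 39 genes, and red points lie on both sides, with Orc6 and Rfc3 filled at the right.

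Among the origin licensing genes, Cdc6 moved with rosiglitazone and Orc6 ran against the rest. Orc6 encodes the smallest subunit of the origin recognition complex. Orc6 read 9.62, 9.72 and 9.73 in 4OHT_Rosi, 9.21, 9.21 and 9.29 in EtOH_Rosi, 9.36, 9.51 and 9.5 in 4OHT, and 9.3, 9.38 and 9.24 in EtOH. Its 4OHT_Rosi arrays were above those of all other groups. The differences were 0.45 (SE 0.063, adjusted p = 0.00067) with rosiglitazone and 0.15 (SE 0.063, adjusted p = 0.25) without, and rosiglitazone after 4-hydroxytamoxifen gave 0.23 (SE 0.063, adjusted p = 0.015). Cdc6, an ATPase needed to load MCM rings, read 5.87, 5.83 and 6.3 in 4OHT_Rosi, 5.81, 5.57 and 5.87 in EtOH_Rosi, 6.37, 6.29 and 6.09 in 4OHT, and 6.41, 6.56 and 6.48 in EtOH. Rosiglitazone after ethanol gave -0.73 (SE 0.12, adjusted p = 0.0003), 1.66-fold lower. Its 4OHT_Rosi values are spread, and 6.3 belongs to array 4OHT_Rosi 3. After 4-hydroxytamoxifen rosiglitazone gave -0.25 (adjusted p = 0.17) for Cdc6 with that array and -0.40 (adjusted p = 0.011) without it. Orc1, the largest subunit, and Cdt1, the MCM loading factor that geminin restrains, passed no test. Their means were 5.75 ± 0.020 and 7.27 ± 0.19 in 4OHT_Rosi, 5.77 ± 0.031 and 7.3 ± 0.12 in EtOH_Rosi, 5.64 ± 0.15 and 7.28 ± 0.11 in 4OHT, and 5.9 ± 0.070 and 7.52 ± 0.065 in EtOH (SD, n = 3 each).

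The MCM genes encode the ring of 6 subunits that unwinds DNA, and Mcm6, Mcm5 and Mcm2 gave the largest falls of the members with rosiglitazone after ethanol. All 6 fell with rosiglitazone after ethanol, 5 fell with it after 4-hydroxytamoxifen (all but Mcm7), and Mcm2, Mcm3 and Mcm7 fell in 4OHT against EtOH. Mcm6 read 7.38, 7.47 and 7.91 in 4OHT_Rosi, 7.49, 7.37 and 7.23 in EtOH_Rosi, 8.23, 8.33 and 8.31 in 4OHT, and 8.57, 8.66 and 8.48 in EtOH. The 2 groups with rosiglitazone lay below the 2 without, and the 4OHT arrays all lay below the EtOH arrays. Rosiglitazone gave -0.70 (SE 0.12, adjusted p = 0.00047) after 4-hydroxytamoxifen and -1.21 (SE 0.12, adjusted p = 3.2e-06) after ethanol, which is 2.31-fold lower in EtOH_Rosi. Mcm3 read 7.03, 7.07 and 7.2 in 4OHT_Rosi, 7.01, 6.97 and 7.02 in EtOH_Rosi, 7.27, 7.42 and 7.34 in 4OHT, and 7.88, 7.76 and 7.6 in EtOH. No pair of Mcm3 groups overlapped, although the lowest 4OHT_Rosi array stood only just above the highest EtOH_Rosi array. Mcm2 read 7.3, 7.29 and 7.61 in 4OHT_Rosi, 7.5, 7.51 and 7.27 in EtOH_Rosi, 7.9, 8.01 and 7.84 in 4OHT, and 8.41, 8.22 and 8.37 in EtOH. In 4OHT against EtOH, Mcm3 gave -0.40 (SE 0.075, adjusted p = 0.0081) and Mcm2 -0.42 (SE 0.096, adjusted p = 0.028). Mcm5 read 7.27, 7.38 and 7.72 in 4OHT_Rosi, 7.43, 7.41 and 7.33 in EtOH_Rosi, 8.0, 8.13 and 8.16 in 4OHT, and 8.42, 8.35 and 8.43 in EtOH. Mcm4 read 8.4, 8.42 and 8.73 in 4OHT_Rosi, 8.5, 8.45 and 8.35 in EtOH_Rosi, 9.1, 9.17 and 9.16 in 4OHT, and 9.38, 9.4 and 9.21 in EtOH. In both genes the rosiglitazone groups overlap each other and lie well under the rest, with log2 differences after ethanol of -1.01 (SE 0.095, adjusted p = 2.8e-06) for Mcm5 and -0.90 (SE 0.087, adjusted p = 3.6e-06) for Mcm4. Mcm7 read 8.23, 8.44 and 8.45 in 4OHT_Rosi, 8.32, 8.35 and 8.43 in EtOH_Rosi, 8.44, 8.54 and 8.45 in 4OHT, and 8.83, 8.72 and 8.71 in EtOH. Mcm7 had the smallest fall of the ring with rosiglitazone after ethanol, -0.39 (SE 0.070, adjusted p = 0.00064). In 4OHT against EtOH it gave -0.28 (SE 0.070, adjusted p = 0.043), and this call was lost when any of the EtOH or 4OHT arrays, EtOH_Rosi 1 or EtOH_Rosi 2 was left out.

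Among the helicase activators, 2 of 5 fell with rosiglitazone after ethanol (3 without 4OHT_Rosi 3) and 1 of 5 after 4-hydroxytamoxifen, where the shares of all genes called lower were 16.3% and 12.1%. Mcm10, a scaffold that helps to open the activated helicase, fell with rosiglitazone after ethanol by a log2 difference of -0.36 (SE 0.067, adjusted p = 0.00079), and Cdc7, the kinase that phosphorylates MCM subunits, gave -0.24 (SE 0.079, adjusted p = 0.031). Gins1, a subunit of the GINS complex, fell with rosiglitazone after 4-hydroxytamoxifen, -0.27 (SE 0.090, adjusted p = 0.042), and gave -0.24 (SE 0.090, adjusted p = 0.06) after ethanol, with an adjusted p = 0.034 without 4OHT_Rosi 3. The first call held in 9 of 21 other settings. Gins1 read 5.45, 5.54 and 5.75 in 4OHT_Rosi, 5.68, 5.68 and 5.69 in EtOH_Rosi, 5.78, 6.0 and 5.78 in 4OHT, and 5.99, 6.01 and 5.77 in EtOH. All rosiglitazone arrays lay below all arrays without it. Cdc45, the helicase cofactor, and Gins2, another GINS subunit, passed no test, with differences after ethanol of -0.09 (SE 0.077, adjusted p = 0.43) and -0.28 (SE 0.11, adjusted p = 0.076). Gins2 had the wider scatter, at 7.92 ± 0.16, 7.85 ± 0.21, 8.07 ± 0.17 and 8.14 ± 0.067 in 4OHT_Rosi, EtOH_Rosi, 4OHT and EtOH (SD, n = 3 each).

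Most polymerase and primase genes of the list fell with rosiglitazone, Pole and Pole2 of DNA polymerase epsilon by the most. Pole encodes the catalytic subunit of this leading strand polymerase and Pole2 its accessory subunit. Its other subunits, Pole3 and Pole4, are outside the member list. In the fit without 4OHT_Rosi 3, Pole4 rose with rosiglitazone after ethanol (0.33, adjusted p = 0.00081) and after 4-hydroxytamoxifen (0.38, adjusted p = 0.001). In the same fit Pole3 rose after 4-hydroxytamoxifen (0.21, adjusted p = 0.034). That fit gave -0.85 for Pole and -0.88 for Pole2 after ethanol, and -0.51 and -0.80 after 4-hydroxytamoxifen. The values that follow are from all arrays. Pole read 6.29, 6.31 and 6.47 in 4OHT_Rosi, 6.34, 6.36 and 6.06 in EtOH_Rosi, 6.79, 6.83 and 6.8 in 4OHT, and 7.17, 7.13 and 7.0 in EtOH. Every array with rosiglitazone was below every array without it. Rosiglitazone gave -0.45 (SE 0.083, adjusted p = 0.0012) after 4-hydroxytamoxifen and -0.85 (SE 0.083, adjusted p = 4e-06) after ethanol. A second, dimmer Pole probe set gave differences of 0.063 after ethanol and -0.223 after 4-hydroxytamoxifen, so the fall after ethanol rests on the brighter one. Pole2 gave -0.64 (SE 0.14, adjusted p = 0.0035) after 4-hydroxytamoxifen and -0.88 (SE 0.14, adjusted p = 0.00019) after ethanol, from EtOH_Rosi arrays that ranged between 6.77 and 7.21 and EtOH arrays between 7.74 and 8.03. Pola1, the catalytic subunit of DNA polymerase alpha, fell after ethanol (-0.49 (SE 0.059, adjusted p = 2.3e-05)) and after 4-hydroxytamoxifen (-0.26 (SE 0.059, adjusted p = 0.0056)). Prim2, the large primase subunit, also fell in both (-0.44 and -0.26), while Prim1, the small catalytic subunit, fell after ethanol (-0.42 (SE 0.12, adjusted p = 0.014)) and gave -0.24 (SE 0.12, adjusted p = 0.18) after 4-hydroxytamoxifen. In the fit without 4OHT_Rosi 3, Prim1 fell there too, at -0.39 (adjusted p = 0.014). Pola2, the second subunit of polymerase alpha, did not pass, at -0.15 (SE 0.073, adjusted p = 0.16) after ethanol.

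Pcna, the sliding clamp, was ordered by treatment. Pcna read 10.03, 9.91 and 10.09 in 4OHT_Rosi, 9.99, 9.97 and 9.87 in EtOH_Rosi, 10.26, 10.24 and 10.22 in 4OHT, and 10.67, 10.58 and 10.53 in EtOH. The 4OHT arrays were tight and lay under every EtOH array, and both groups with rosiglitazone lay lower still. The differences were -0.35 (SE 0.063, adjusted p = 0.0063) in 4OHT against EtOH, -0.65 (SE 0.063, adjusted p = 3.8e-06) for rosiglitazone after ethanol and -0.23 (SE 0.063, adjusted p = 0.017) for it after 4-hydroxytamoxifen. With rosiglitazone, 4OHT_Rosi against EtOH_Rosi gave 0.07 (SE 0.063, adjusted p = 0.62), with overlapping arrays. Of the clamp loader subunits, Rfc3 had 6.98, 6.94 and 7.16 in 4OHT_Rosi, 6.81, 6.69 and 6.71 in EtOH_Rosi, 6.97, 6.9 and 6.99 in 4OHT, and 7.07, 6.92 and 6.92 in EtOH. EtOH_Rosi alone was low, below every other array, and the other 3 groups overlapped. That gave 0.29 (SE 0.071, adjusted p = 0.023) for 4OHT_Rosi against EtOH_Rosi and -0.23 (SE 0.071, adjusted p = 0.022) for EtOH_Rosi against EtOH. Rfc5 fell with rosiglitazone after ethanol (-0.50 (SE 0.10, adjusted p = 0.0017)), although array EtOH_Rosi 3 read 8.21 and the other EtOH_Rosi arrays 7.77 and 7.84. After 4-hydroxytamoxifen Rfc5 gave -0.25 (adjusted p = 0.11), and -0.34 (adjusted p = 0.037) without 4OHT_Rosi 3. Rfc2 read 7.54, 7.56 and 7.63 in 4OHT_Rosi, 7.59, 7.79 and 7.7 in EtOH_Rosi, 7.68, 7.58 and 7.45 in 4OHT, and 7.84, 7.82 and 7.4 in EtOH. Its EtOH arrays spanned all the others, and it passed no test. Rfc1, the large subunit of the clamp loader, is outside the member list and went the other way. It rose with rosiglitazone after ethanol, at 0.35 (SE 0.058, adjusted p = 0.00031), and gave 0.07 (SE 0.058, adjusted p = 0.46) after 4-hydroxytamoxifen.

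**Figure D4:**
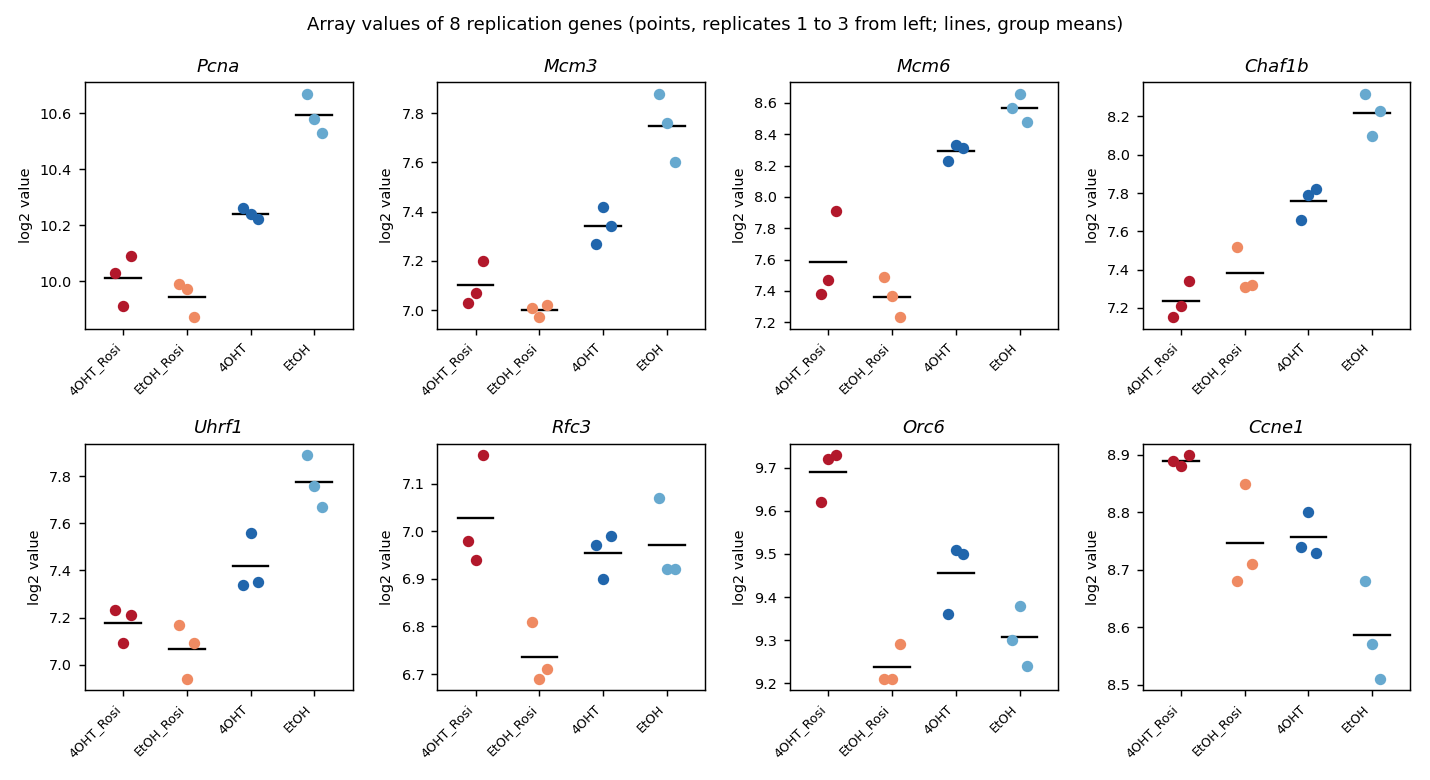
Log2 values of 8 replication genes on each array (points; replicates 1 to 3 from left within a group) with the group means (lines); each panel has its own axis. Pcna, Mcm3, Mcm6, Chaf1b and Uhrf1 are highest in EtOH, next in 4OHT and low in both rosiglitazone groups, Rfc3 is low in EtOH_Rosi alone, and Orc6 and Ccne1 are highest in 4OHT_Rosi.

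The enzymes of Okazaki fragment maturation and of deoxynucleotide supply all fell with rosiglitazone after ethanol, by smaller amounts. Lig1, the ligase that seals the lagging strand, gave -0.47 (SE 0.083, adjusted p = 0.00053), and Fen1, the flap nuclease, gave -0.35 (SE 0.13, adjusted p = 0.048). The Fen1 call held in 9 of 21 other settings, with values between -0.41 and -0.17 and an adjusted p of up to 0.158. Fen1 read 6.06, 6.19 and 6.63 in 4OHT_Rosi and 6.09, 5.92 and 6.1 in EtOH_Rosi. Its value of 6.63 in 4OHT_Rosi 3 was above every other array, and its second probe set differed by 0.007 after ethanol. Rrm1 and Rrm2 encode the subunits of ribonucleotide reductase, which makes deoxynucleotides, and gave -0.19 (SE 0.063, adjusted p = 0.036) and -0.41 (SE 0.091, adjusted p = 0.0029). A dim second Rrm2 probe set gave 0.04. Tyms, which makes thymidylate, fell both after ethanol (-0.38 (SE 0.064, adjusted p = 0.0004)) and after 4-hydroxytamoxifen (-0.27 (SE 0.064, adjusted p = 0.0068)). Tk1, the S phase thymidine kinase, gave -0.49 (SE 0.088, adjusted p = 0.00062) after ethanol, and in 4OHT against EtOH it missed, at -0.33 (SE 0.088, adjusted p = 0.058), with no overlap of arrays. Without 4OHT_Rosi 3 Tk1 fell there, and also with rosiglitazone after 4-hydroxytamoxifen (-0.27, adjusted p = 0.046, against -0.20 and 0.14 with that array).

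All 3 chromatin genes of the fork fell with rosiglitazone after ethanol, where 16.3% of all genes were called lower. Chaf1b and Uhrf1 fell by more than Chaf1a. Chaf1b is a subunit of chromatin assembly factor 1, which deposits histones on new DNA, and gave the smallest p of all members in 4OHT against EtOH. Chaf1b read 7.15, 7.21 and 7.34 in 4OHT_Rosi, 7.52, 7.31 and 7.32 in EtOH_Rosi, 7.66, 7.79 and 7.82 in 4OHT, and 8.32, 8.1 and 8.23 in EtOH. The EtOH arrays were highest, the 4OHT arrays next, and both rosiglitazone groups lower, and Chaf1b was 1 of the 14 members with a lower mean in 4OHT_Rosi than in EtOH_Rosi. Its differences were -0.46 (SE 0.081, adjusted p = 0.0056) in 4OHT against EtOH, -0.15 (SE 0.081, adjusted p = 0.33) with rosiglitazone, and -0.83 (SE 0.081, adjusted p = 3.8e-06) and -0.52 (SE 0.081, adjusted p = 0.0003) for rosiglitazone after ethanol and after 4-hydroxytamoxifen. Uhrf1 brings the maintenance DNA methyltransferase to new DNA. Uhrf1 read 7.23, 7.09 and 7.21 in 4OHT_Rosi, 7.17, 6.94 and 7.09 in EtOH_Rosi, 7.34, 7.56 and 7.35 in 4OHT, and 7.89, 7.76 and 7.67 in EtOH. It gave -0.36 (SE 0.084, adjusted p = 0.03) in 4OHT against EtOH and -0.71 (SE 0.084, adjusted p = 1.9e-05) for rosiglitazone after ethanol. Chaf1a, the partner subunit of Chaf1b, passed in EtOH_Rosi against EtOH alone, at -0.33 (SE 0.093, adjusted p = 0.015).

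The G1/S control and checkpoint genes were mixed. Ccne1 encodes cyclin E1, the CDK2 partner at S phase entry. Ccne1 read 8.89, 8.88 and 8.9 in 4OHT_Rosi, 8.68, 8.85 and 8.71 in EtOH_Rosi, 8.74, 8.8 and 8.73 in 4OHT, and 8.68, 8.57 and 8.51 in EtOH. It was the one member with 4OHT arrays all above EtOH arrays, and 4OHT_Rosi arrays were above all others, but no comparison passed with all arrays (0.17 (SE 0.063, adjusted p = 0.18) in 4OHT against EtOH). Dtl, the substrate receptor that sends Cdt1 to degradation, fell with rosiglitazone by -0.35 (SE 0.077, adjusted p = 0.0027) after ethanol and -0.43 (SE 0.077, adjusted p = 0.0009) after 4-hydroxytamoxifen. Dtl read 6.77, 6.89 and 7.12 in 4OHT_Rosi, 7.13, 7.0 and 7.08 in EtOH_Rosi, 7.36, 7.33 and 7.39 in 4OHT, and 7.42, 7.43 and 7.42 in EtOH. Clspn, the mediator of the replication checkpoint kinase Chk1, fell after ethanol, -0.35 (SE 0.067, adjusted p = 0.001), and in 4OHT against EtOH it stood at the threshold without passing (-0.26 (SE 0.067, adjusted p = 0.0504)). Clspn read 5.8, 5.87 and 5.9 in 4OHT_Rosi, 5.71, 5.84 and 5.84 in EtOH_Rosi, 5.87, 5.98 and 5.82 in 4OHT, and 6.21, 6.18 and 6.05 in EtOH. The EtOH arrays were above all the others. E2f1, a transcriptional activator of this program, gave -0.12 (SE 0.058, adjusted p = 0.14) and -0.10 (SE 0.058, adjusted p = 0.47) in EtOH_Rosi against EtOH and in 4OHT against EtOH. Tipin, a fork protection factor, passed no test, and its EtOH arrays were spread between 7.35 and 7.9. In all, 9 of the 39 members passed in no comparison: Orc1, Cdt1, Cdc45, Gins2, Pola2, Rfc2, Ccne1, E2f1 and Tipin.

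The 4-hydroxytamoxifen effect differed between the conditions for Mcm3 and Pcna. Taken as the effect with rosiglitazone minus the effect without it, which equals the rosiglitazone effect after 4-hydroxytamoxifen minus that after ethanol, the difference was 0.50 (SE 0.11, adjusted p = 0.044) for Mcm3 and 0.42 (SE 0.090, adjusted p = 0.045) for Pcna. These are 2 of 39 members (5.13%), and 0 differed in the other direction, while 0.523% of all genes were called higher and 0.482% lower. The next members were Uhrf1 (0.47 (SE 0.12, adjusted p = 0.09)), Pole (0.40 (SE 0.12, adjusted p = 0.14)), Clspn (0.32 (SE 0.094, adjusted p = 0.14)) and Orc6 (0.30 (SE 0.089, adjusted p = 0.14)). The median over the members was 0.24, with 35 positive values, 3 negative ones and Rfc2 at 0, and over all genes it was -0.0033. For 23 members the 4-hydroxytamoxifen difference was negative without and positive with rosiglitazone, for 14 negative in both and for 2 positive in both, and without 4OHT_Rosi 3 these counts were 15, 22 and 2. Neither call survived leaving out 4OHT_Rosi 3, with 0.45 for Mcm3 (adjusted p = 0.10) and 0.38 for Pcna (adjusted p = 0.10), and the count was 0 without EtOH 1, EtOH 2, any 4OHT array, EtOH_Rosi 2 or EtOH_Rosi 3.

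Further genes of the pathway, listed by function with earlier results of these data known, moved less uniformly. Of 33 other replication machinery genes, 12 fell and 5 rose with rosiglitazone after ethanol, 5 fell and 5 rose with it after 4-hydroxytamoxifen, 1 fell in 4OHT against EtOH and 2 fell in 4OHT_Rosi against EtOH_Rosi. The falls after ethanol were 36.4% of the list, against 16.3% of all genes, while the rises after ethanol (15.2% against 14.4%), both directions after 4-hydroxytamoxifen (15.2% each, against 12.1% lower and 11.6% higher) and the fall in 4OHT against EtOH (3.03% against 1.79%) were near the shares of all genes. The 2 falls in 4OHT_Rosi against EtOH_Rosi were 6.06% of the list, against 3.38% of all genes. Without 4OHT_Rosi 3, 8 fell and 4 rose with rosiglitazone after 4-hydroxytamoxifen, and 2 fell in 4OHT against EtOH. Pold1, the catalytic subunit of DNA polymerase delta, was the one with all arrays in 4OHT against EtOH, at -0.36 (SE 0.069, adjusted p = 0.01), a call lost without 4OHT 3. Wdhd1, which couples helicase and polymerase alpha, gave -0.68 (SE 0.082, adjusted p = 2.2e-05) after ethanol, and Gins3 -0.53 (SE 0.071, adjusted p = 5.7e-05). Gmnn encodes geminin, the inhibitor of Cdt1, and went the other way. Gmnn read 6.83, 6.86 and 6.87 in 4OHT_Rosi, 7.24, 7.27 and 7.2 in EtOH_Rosi, 6.61, 6.63 and 6.67 in 4OHT, and 6.79, 6.75 and 6.51 in EtOH. Its EtOH_Rosi arrays were the highest, with 0.55 (SE 0.069, adjusted p = 3.1e-05) for rosiglitazone after ethanol and -0.38 (SE 0.069, adjusted p = 0.0039) in 4OHT_Rosi against EtOH_Rosi. Pold4, a small subunit of polymerase delta, had the same pattern (0.55 and -0.44). Of 16 other nucleotide supply genes, 8 fell and 3 rose with rosiglitazone after ethanol, among them Ctps, a CTP synthase, at -0.85 (SE 0.072, adjusted p = 1.1e-06), and Cmpk1, a nucleotide kinase, at 0.74 (SE 0.059, adjusted p = 7.3e-07). Of 11 other S phase chromatin genes, 8 fell with rosiglitazone after ethanol (72.7%, against 16.3%), led by Dnmt1, the maintenance methyltransferase, at -0.69 (SE 0.064, adjusted p = 2.6e-06). In 4OHT_Rosi against EtOH_Rosi, 3 of these 11 rose (27.3%, against 4.65% of all genes): Casp8ap2 (0.30), Hat1 (0.26) and Asf1b (0.28). Without 4OHT_Rosi 3 Casp8ap2 alone rose.

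Among upstream regulators of S phase entry, falls with rosiglitazone outnumbered rises. Of 24 G1/S regulators, 11 fell and 4 rose with rosiglitazone after ethanol, 7 fell and 3 rose with it after 4-hydroxytamoxifen, 3 fell and 2 rose in 4OHT against EtOH, and 2 fell and 3 rose in 4OHT_Rosi against EtOH_Rosi, where 0 fell and 3 rose without 4OHT_Rosi 3. The falls with rosiglitazone were 45.8% of the list after ethanol (16.3% of all genes) and 29.2% after 4-hydroxytamoxifen (12.1%), and the rises, at 16.7% (14.4%) and 12.5% (11.6%), were near the shares of all genes. In 4OHT against EtOH the falls were 12.5% (1.79% of all genes) and the rises 8.33% (2.13%). With arrays left out in turn, 1 to 4 of the G1/S regulators fell there and 0 to 3 rose. In 4OHT_Rosi against EtOH_Rosi the falls were 8.33% (3.38%) and the rises 12.5% (4.65%). Ccnd1 encodes cyclin D1, which starts inactivation of the retinoblastoma protein. Ccnd1 read 9.86, 9.54 and 9.67 in 4OHT_Rosi, 8.86, 9.01 and 8.81 in EtOH_Rosi, 10.32, 10.46 and 10.45 in 4OHT, and 10.14, 10.07 and 10.14 in EtOH. It fell with rosiglitazone after ethanol, -1.22 (SE 0.082, adjusted p = 1.7e-07), and was 1.74-fold higher in 4OHT_Rosi than in EtOH_Rosi (0.80 (SE 0.082, adjusted p = 6.1e-05)). Rb1, the retinoblastoma gene, was higher in EtOH_Rosi than in EtOH (0.72 (SE 0.059, adjusted p = 9.5e-07)), Skp2, the ubiquitin ligase receptor for p27, was lower (-0.69 (SE 0.087, adjusted p = 3.3e-05)), and Cdc25a, a CDK-activating phosphatase, was higher (0.83 (SE 0.076, adjusted p = 2.1e-06)). Fbxo5, an inhibitor of the anaphase-promoting complex, was the one of the 24 that passed for the difference of effects (0.40 (SE 0.085, adjusted p = 0.046)), and it passed in none of the 12 fits that left out an array. Cdkn1a, the CDK inhibitor p21, was higher in 4OHT than in EtOH (0.24 (SE 0.052, adjusted p = 0.021)) and in EtOH_Rosi than in EtOH (0.16 (SE 0.052, adjusted p = 0.031)), and gave 0.11 (SE 0.052, adjusted p = 0.27) in 4OHT_Rosi against EtOH_Rosi, 0.03 (SE 0.052, adjusted p = 0.76) in 4OHT_Rosi against 4OHT and -0.13 (SE 0.073, adjusted p = 0.47) for the difference of effects. Cdkn1b, the inhibitor p27, was lower after 4-hydroxytamoxifen in both media, at -0.45 (SE 0.063, adjusted p = 0.00067) with rosiglitazone and -0.41 (SE 0.063, adjusted p = 0.0023) without. Of the 7 CDK inhibitor genes, 2 rose (28.6%) and 1 fell (14.3%) in 4OHT against EtOH, against 2.13% and 1.79% of all genes. With arrays left out in turn, 0 to 2 rose there. In EtOH_Rosi against EtOH 1 rose and 1 fell (14.3% each), near the shares of all genes (14.4% and 16.3%). In 4OHT_Rosi against 4OHT 1 rose and 3 fell (14.3% and 42.9%, against 11.6% and 12.1%), with 0 to 3 falls when arrays were left out. Of 21 p53 target genes, Cdkn1a among them, 4 rose and 1 fell in 4OHT against EtOH (19.0% and 4.76%, against 2.13% and 1.79% of all genes). In 4OHT_Rosi against EtOH_Rosi 4 rose and 2 fell (19.0% and 9.52%, against 4.65% and 3.38%). With arrays left out in turn, 1 to 6 of the p53 targets rose in the first comparison (6 without 4OHT_Rosi 3) and 1 to 5 in the second (1 without 4OHT_Rosi 3 or EtOH_Rosi 3). With rosiglitazone after ethanol 3 rose and 7 fell (14.3% and 33.3%, against 14.4% and 16.3%). After 4-hydroxytamoxifen 1 rose and 5 fell with it (4.76% and 23.8%, against 11.6% and 12.1%).

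Genes of mitosis and of other cell types moved in the same comparisons, and their part in the replication result was not tested. Of 29 mitosis genes, 26 fell in 4OHT against EtOH (median -0.54), 29 fell in EtOH_Rosi against EtOH (-0.89), 21 fell in 4OHT_Rosi against 4OHT (-0.47), 2 fell in 4OHT_Rosi against EtOH_Rosi (-0.067), and 7 passed for the difference of effects (0.47). Without 4OHT_Rosi 3 these counts were 26, 29, 25, 3 and 1, and with each array left out in turn 15 to 26 fell in 4OHT against EtOH (15 without 4OHT 1), 0 to 3 fell in 4OHT_Rosi against EtOH_Rosi and 0 to 10 passed for the difference of effects. The shares of all genes called lower were 1.79%, 16.3%, 12.1% and 3.38% in that order, and 0.523% were called higher for the difference. Mki67, the proliferation marker Ki-67, averaged 7.68 ± 0.21 in 4OHT_Rosi, 8.03 ± 0.11 in EtOH_Rosi, 8.51 ± 0.11 in 4OHT and 9.31 ± 0.031 in EtOH (SD, n = 3 each). Of 9 adipose progenitor markers, 8 fell in EtOH_Rosi against EtOH and 8 in 4OHT_Rosi against 4OHT (88.9% each, against 16.3% and 12.1% of all genes). Their mean log2 level was 9.38 to 9.75 on the 4OHT_Rosi arrays, 9.38 to 9.63 on the EtOH_Rosi arrays, 10.40 to 10.52 on the 4OHT arrays and 10.47 to 10.57 on the EtOH arrays. In 4OHT against EtOH 1 of the 9 rose, Pi16 (1.02 (SE 0.13, adjusted p = 0.00056)), and 1 fell, Pdgfra (-0.53 (SE 0.091, adjusted p = 0.0049)). Within the 4OHT_Rosi group, array 3 was highest for the replication genes (7.541, against 7.331 and 7.373), the mitosis genes (7.169, against 6.858 and 6.929), the progenitor markers (9.748, against 9.38 and 9.523) and the smooth muscle markers (8.917, against 8.597 and 8.57).

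Markers of cells that could remain in such a culture also fell with rosiglitazone. After ethanol, 9 of 13 macrophage and leukocyte markers, 8 of 8 endothelial markers and 7 of 7 smooth muscle and myofibroblast markers fell, and after 4-hydroxytamoxifen 6, 7 and 5 of them fell, with 1 rise among the first. The shares of all genes called lower were 16.3% and 12.1%. Without 4OHT_Rosi 3 the counts after 4-hydroxytamoxifen were 5, 6 and 5, with 0 rises. Mean levels of the macrophage and leukocyte markers were 7.97 to 8.06 in 4OHT_Rosi arrays, 7.88 to 7.999 in EtOH_Rosi arrays, 8.16 to 8.31 in 4OHT arrays and 8.28 to 8.497 in EtOH arrays. Endothelial markers had 8.28 to 8.58 in 4OHT_Rosi arrays, 8.34 to 8.51 in EtOH_Rosi arrays, 8.94 to 9.08 in 4OHT arrays and 9.02 to 9.19 in EtOH arrays. Smooth muscle markers had 8.57 to 8.92 in 4OHT_Rosi arrays, 7.94 to 8.32 in EtOH_Rosi arrays, 9.1 to 9.19 in 4OHT arrays and 8.91 to 9.17 in EtOH arrays. Of 8 adipocyte markers, 5 rose after ethanol (62.5%, against 14.4% of all genes) and 3 after 4-hydroxytamoxifen (37.5%, against 11.6%). The list medians were 0.24 and 0.13. Cidec, a lipid droplet protein, rose far more than these medians, at 1.89 (SE 0.073, adjusted p = 1.5e-09) and 2.19 (SE 0.073, adjusted p = 8e-10), and was the largest of the list in both. In 4OHT_Rosi against EtOH_Rosi, 3 of the 7 smooth muscle markers rose (42.9%, against 4.65% of all genes), with a median of 0.53. Without 4OHT_Rosi 3, 2 rose there (median 0.465), and 2 to 5 did with each array left out in turn. In 4OHT against EtOH 2 of them rose (28.6%, against 2.13%), with a median of -0.01. Their part in the replication result was not tested.

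**Figure D5:**
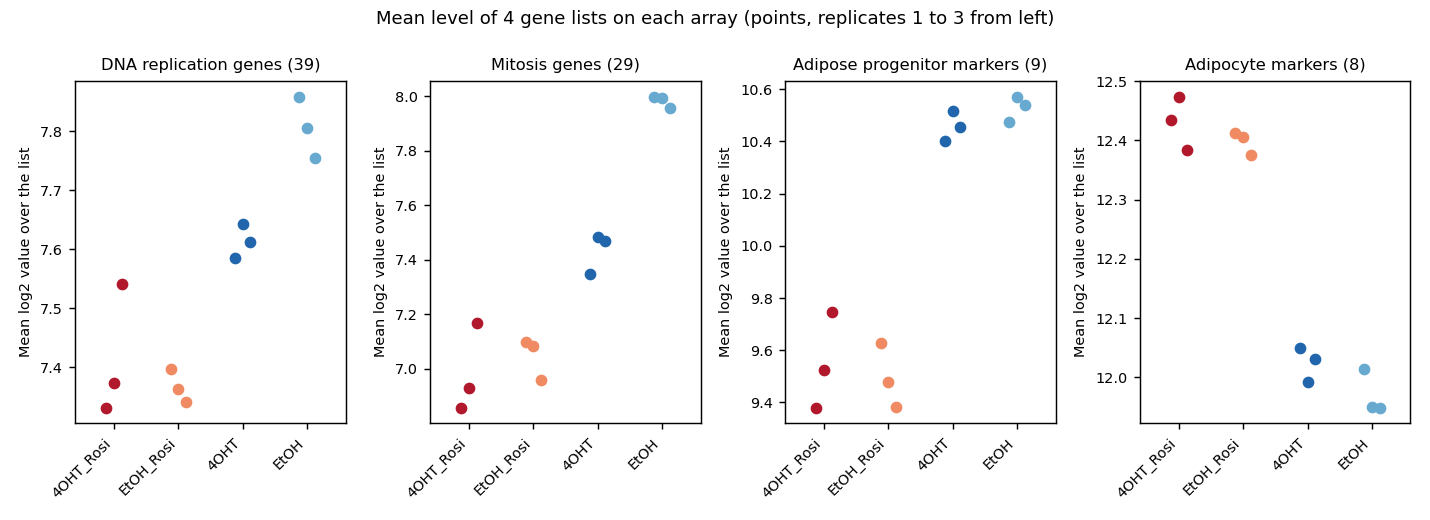
Mean log2 level of the 39 replication genes, 29 mitosis genes, 9 adipose progenitor markers and 8 adipocyte markers on each array (points; replicates 1 to 3 from left within a group); each panel has its own axis. The first 3 lists are low in both rosiglitazone groups, adipocyte markers are high there, and the 4OHT arrays lie between the EtOH arrays and the rosiglitazone arrays for replication and mitosis genes.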

How the data were processed

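RNA from 12 samples of mouse adipocytes was labelled and read on Affymetrix arrays, 3 in each of 4 groups named by the labels' titles. The values are log2 probe set values as deposited by the authors. Affymetrix Expression Console is named in the submitters' processing notes, with no version, and the summary and scaling methods were not given in the sources used here. Of 41345 probe sets, 23525 carried a single gene symbol, 1810 several and 16010 none. For 23329 of the 23525 the current name came from RefSeq through the Entrez ID. The brightest probe set of each gene gave 22184 genes, with no filter on dim ones.

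Groups were compared in limma 3.58.1 (R 4.3.3) with a mean per group over all 12 arrays, 5 contrasts, eBayes (8 residual and 5.07 prior degrees of freedom) and Benjamini-Hochberg adjustment over the 22184 genes within a contrast. Every adjusted p printed is from limma, and a gene rose or fell where it was under 0.05. The fit was tested on simulated data. The number of arrays limits precision. No label says that replicate numbers pair arrays, and the main fit did not pair them. Deviations from the group mean correlated at -0.24 to 0.079 between arrays of 1 number. These values show no shared array effect but cannot show whether cultures were paired.

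Members and lists were chosen with earlier results of these data known. Array values were given for the 6 members with the smallest p in each contrast and up to 2 that ran against the majority, with further members added for their role, and for Prdm16. From each further list up to 4 genes with the smallest p per contrast could be named, and Cdkn1a in every contrast. Pole3 and Pole4 were also named, as further subunits of the enzyme of Pole and Pole2. The settings varied, one at a time, were a replicate block, fitting only the 2 groups compared, a robust prior with an intensity trend, weighted arrays, quantile scaling, centring on medians, dropping genes below the 25th or 50th percentile, averaging all probe sets of a gene, requiring 1.5-fold, and omitting each array.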

Additional observations from a re-analysis of the deposited data

Results flagged for a closer look

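The 4-hydroxytamoxifen effects with and without rosiglitazone differed by a test of the difference itself for Mcm3 and Pcna. For Mcm3 the effect with rosiglitazone minus that without was 0.50 log2, from 0.10 in 4OHT_Rosi against EtOH_Rosi and -0.40 in 4OHT against EtOH (limma, adjusted p = 0.044). For Pcna it was 0.42 log2, from 0.067 in 4OHT_Rosi against EtOH_Rosi and -0.35 in 4OHT against EtOH (adjusted p = 0.045). Over 21 other settings the adjusted p ranged between 0.0201 and 0.127 for Mcm3 and between 0.0143 and 0.111 for Pcna.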

How the results depend on the processing

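No call of a replication gene turned its direction under any alternative run. With calls also needing a 1.5-fold change, the counts were 0 for 4OHT against EtOH (6 in the report), 0 for 4OHT_Rosi against EtOH_Rosi (2), 11 for EtOH_Rosi against EtOH (28), 4 for 4OHT_Rosi against 4OHT (15) and 0 for the difference of effects (2). In 4OHT against EtOH, 11 genes passed in a fit of only these 2 groups and 18 with array weights (1 higher and 17 lower), where EtOH 2 had a weight of 2.67 and 4OHT_Rosi 3 of 0.519. In 4OHT_Rosi against EtOH_Rosi 1 gene passed in the fit of 2 groups. The difference of effects had 0 calls with median centring. The causes were not tested.

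Leaving out each array gave 3 to 9 calls in 4OHT against EtOH, 1 to 2 in 4OHT_Rosi against EtOH_Rosi, 23 to 30 in EtOH_Rosi against EtOH, 10 to 19 in 4OHT_Rosi against 4OHT, and 0 to 1 for the difference of effects, with fewer arrays in each fit. With the replicate number as a block, 3 genes passed in 4OHT against EtOH, 13 in 4OHT_Rosi against 4OHT and 0 for the difference of effects. Whether the numbers pair the arrays is not stated by the labels. Deviations of the arrays correlated at a median of -0.013 within a number and 0.033 between numbers, which cannot settle it. Single calls were kept in 245 of 273 values under alternatives and 311 of 336 with an array left out in EtOH_Rosi against EtOH, 130 of 149 and 161 of 180 in 4OHT_Rosi against 4OHT, 50 of 60 and 56 of 72 in 4OHT against EtOH, 17 of 20 and 21 of 24 in 4OHT_Rosi against EtOH_Rosi, and 12 of 18 and 4 of 24 for the difference of effects. The summary and normalization behind the deposited values are not known here, and no measure of signal over background was used here.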
